A study of Mus musculus with 4 samples.

Results

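The genes described here encode 10 cytokines that stromal and endothelial cells supply to blood cells: Kitl, Il7, Il15, Il34, Il6, Csf1, Flt3l, Tnfsf13b, Thpo and Il33. They were taken by name, as every non-control probe on the array whose gene name is one of the 10, which gave 14 of 39429 probes. RNA came from mouse spleen cells sorted for CD31 and was hybridised to 1-colour Agilent arrays. ACKR4-positive cells (CD31+, with GFP from the Ackr4 reporter) gave 2 arrays, and ACKR4-negative cells (CD31+, without GFP) gave 2 arrays. All mice of both groups were Ackr4GFP/wt, carrying 1 reporter allele, and no treatment is named. Both groups were living single cells without CD45, the leukocyte surface protein, after bead depletion of CD45-bearing cells. Each of 2 independent sorts pooled 2 to 3 mice and gave 1 array per group, so a replicate is a pool and its number is the sort. Age, sex and strain background are not given in the sources used here.

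Blood cells do not keep themselves: stem cells, progenitors and mature leukocytes survive and divide on cytokines presented by neighbouring stroma and vessels, an arrangement called a niche. In the spleen, stem cell factor from endothelial and perivascular cells serves blood formation outside the marrow, colony stimulating factor 1 keeps red pulp macrophages, and BAFF keeps B cells. Each of these ligands acts through a receptor on the blood cell, and several are cut from the membrane or presented while still attached to it.

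In short, 1 of the 10 genes was called different between the groups. Il7, the lymphocyte survival cytokine, was lower in ACKR4-positive cells, where its signal did not rise well above background, so the direction of its difference was set by how genes entered the test. Il6 had a similar pattern and missed the threshold. Kitl, Csf1, Flt3l, Il15 and Il34 were measured in both groups and were not called, and Tnfsf13b, Thpo and Il33 were not well above background on any array.

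The arrays read each gene through 60-base probes, each printed as 4 spots. The first 30 bases of the probes behind the main results are shown 5′ to 3′, because probes of 1 gene can read different transcripts. Positions are those of the array files, on mm9. Exon and UTR annotation of that build was not used here. The Il7 probe lies at chr3:7573207-7573266 (minus strand), the Il6 probe at chr5:30346367-30346426 (plus strand) and the Kitl probe at chr10:99558962-99559021 (plus strand). Csf1 has 3 probes on the minus strand. The array files assign the one at chr3:107544333-107544392 to transcript variant 1, and those at chr3:107548550-107548609 and chr3:107548521-107548580 to transcript variant 3. The variant 3 probes overlap by 31 bases, and bases that both contain are in capitals.
Il7: aagatagaaatgcacttattccaaagatac
Il6: ctgttacctagccagatggtttcttggaat
Kitl: tcttcagtcacaacctgcagcctgtcgtta
Csf1 variant 1: tgtggggcttacttagccttctggttacag
Csf1 variant 3, upstream probe: cgtgcagattaagatcacattagttttaaC
Csf1 variant 3, downstream probe: CAGCTGCATCATATATTGTCATATGTTGAG

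A level below is the mean log2 signal of a probe's spots minus the array's 75th percentile, so 0 equals that percentile and each unit is a doubling. A gene was tested when 1 of its probes had over 50% of its spots well above background on each array of either group, and the brightest such probe stood for it. Differences are log2 fold changes of ACKR4-positive over ACKR4-negative arrays from limma, with standard errors, n = 2 arrays per group and Benjamini-Hochberg adjustment over 17362 tested genes. A gene is called where the adjusted p is under 0.05. Over all tested genes 976 were called (5.62%), 332 higher (1.91%) and 644 lower (3.71%), and with the sort as a block 2656 were (15.3%). Signal was well above background for 54.9% to 58.3% of probes. ACKR4-negative replicate 1 stood apart in the median signal of its spiked-in control RNA, 837 against 2749 to 3489 on the other arrays. Ackr4, the sorting gene, had levels of -0.21 and 2.55 in ACKR4-positive cells and -7.53 and -7.50 in ACKR4-negative cells. Pecam1, which encodes CD31, was well above background on all 4 arrays, as was Cdh5, the endothelial cadherin gene.

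Of the 10 cytokine genes, 7 were tested. Kitl, Csf1, Flt3l, Il15 and Il34 were well above background in both groups, whereas Il7 and Il6 passed through the ACKR4-negative arrays alone and so had to differ in measured signal. Of the 7, 0 were called higher and 1 was called lower, against 1.91% and 3.71% of all tested genes. Of all tested genes, 870 passed through the ACKR4-negative arrays alone in this way, and 306 of them were called lower. Another 795 passed through the ACKR4-positive arrays alone, and 104 of them were called higher. Of the 5 cytokine genes measured in both groups, 0 were called. Of all 15697 genes measured in both groups, 228 were called higher and 338 lower. At an unadjusted p under 0.05 in limma, 0 of the 7 were higher and 2 lower (Il7 and Il6), beside 7.12% and 9.13% of all tested genes. In the fit with the sort as a block 0 were called higher and 2 lower, where 6.75% and 8.55% of all genes were. The median log2 fold change of the 7 was -0.63, the value of Kitl, beside 0.038 over all tested genes. Its sign did not hold: the median was 0.25 over the 5 genes measured in both groups and 0.25 over the 7 without ACKR4-negative replicate 1. The groups did not overlap for 4 of the 7 (57.1%), beside 44.9% of all tested genes. Of these 4, 1 was higher and 3 lower, where 23.3% of all tested genes were higher and 21.6% lower without overlap. In both sorts 3 of the 7 were higher (Il15, Csf1 and Flt3l) and 3 lower (Il7, Il6 and Il34), beside 38.6% and 34.5% of all tested genes.

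**Figure D1:**
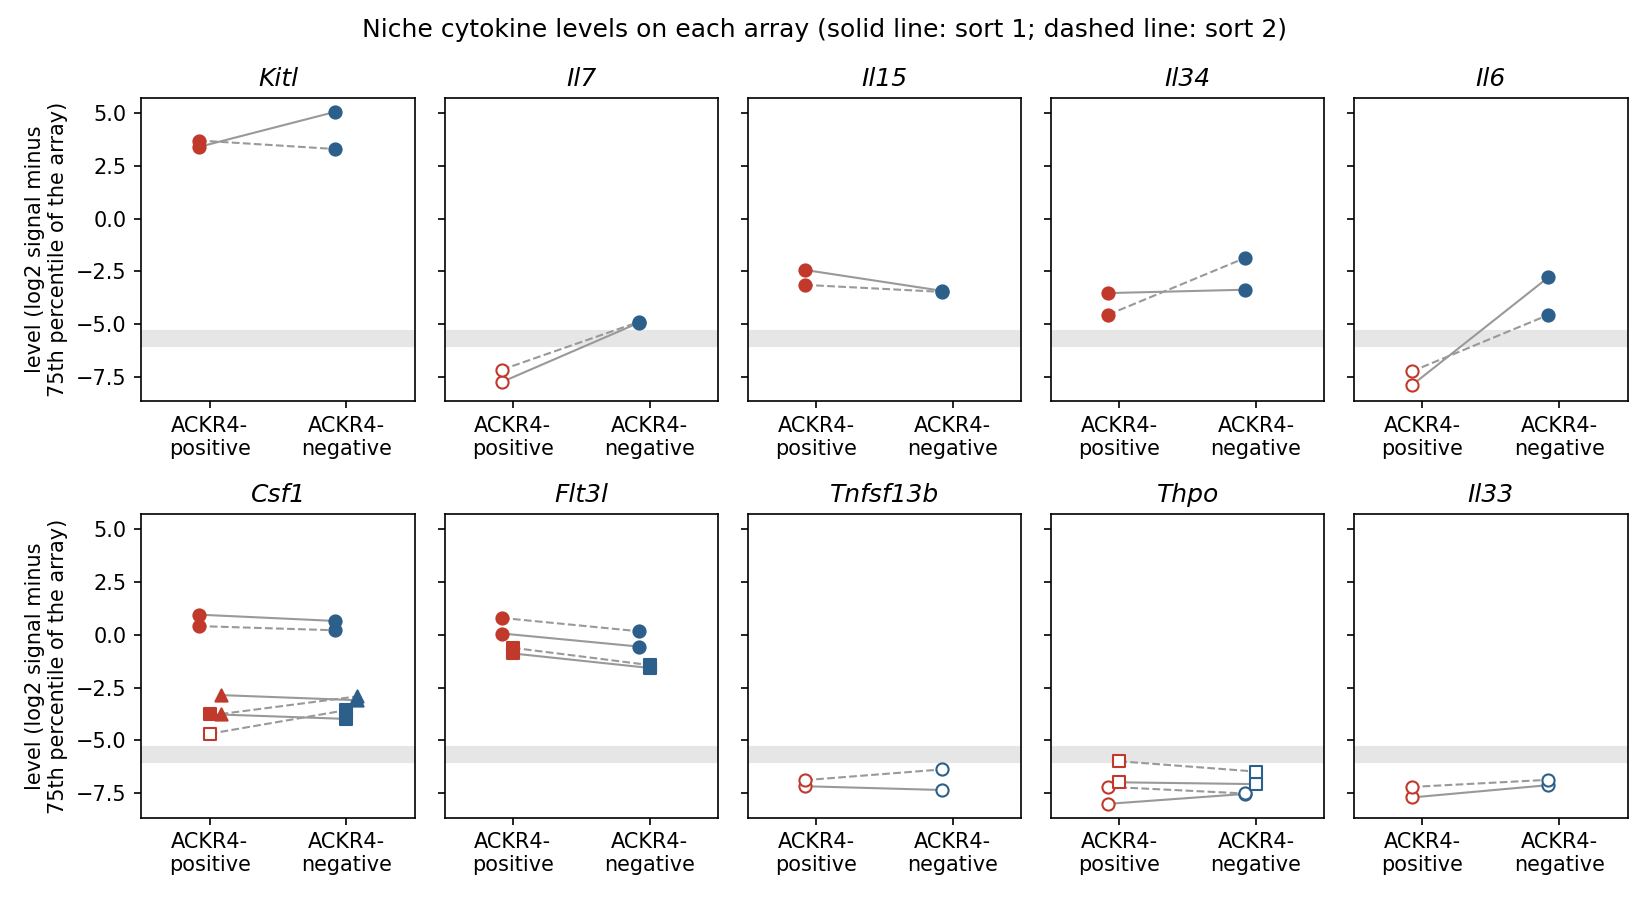
Level (log2 signal minus the array's 75th percentile) of each probe of the 10 cytokine genes, with ACKR4-positive arrays on the left in red and ACKR4-negative arrays on the right in blue. Marker shapes are different probes of a gene, lines join the arrays of 1 sort, open markers are probes not well above background, and the grey band spans the lowest levels well above background on the 4 arrays (-6.03 to -5.31). Il7 and Il6 are open on both ACKR4-positive arrays, and Tnfsf13b, Thpo and Il33 are open on all arrays.

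Among the cytokines of lymphocytes, Il7 encodes interleukin 7, which T cell and early B cell precursors need and which reticular stroma and lymphatic endothelium are known to make. Its levels were -7.73 and -7.15 in ACKR4-positive cells and -4.94 and -4.90 in ACKR4-negative cells. Both ACKR4-negative arrays were higher than both ACKR4-positive arrays, and the replicates of the ACKR4-negative group lay close together. Of 4 spots per array, 0 were well above background on each ACKR4-positive array and 3 on each ACKR4-negative array, so Il7 sat just above the detection limit in the group that carried it. A floor-based fold raises the dimmer group's levels to each array's lowest level well above background. For Il7 it was 1.69, lower in ACKR4-positive cells. It is not a minimum, because a probe can miss that mark at a higher level. The fit on the measured signals gave a log2 difference of -2.53 ± 0.32 (limma, adjusted p = 0.0250), with -2.80 in sort 1 and -2.25 in sort 2. Those sizes include signal below the detection limit, and because Il7 was tested through the ACKR4-negative arrays alone, the p does not bear on the direction.

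The Il7 call depended on how faint signal was treated. With normexp background correction, which here adds an offset of 50, the log2 fold change was -0.44 (limma, adjusted p = 0.680). The offset exceeds the mean Il7 spot signals, 4.58 and 4.19 on the ACKR4-positive and 25.9 and 22.2 on the ACKR4-negative arrays. Adding it shrinks such a difference by itself, so this setting cannot tell the offset from the background correction. The same holds for the normexp values given for other faint genes. The call was also lost without ACKR4-positive replicate 1 (adjusted p = 0.0737), without ACKR4-negative replicate 1 (adjusted p = 0.112) and without ACKR4-negative replicate 2 (adjusted p = 0.109), at values of -2.55 to -2.23.

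Il15 encodes interleukin 15, which natural killer cells and memory CD8 T cells depend on. At its probe (chr8:84858403-84858462, minus strand) levels were -2.43 and -3.14 in ACKR4-positive cells and -3.42 and -3.47 in ACKR4-negative cells, with 4 of 4 spots well above background on every array. Both ACKR4-positive arrays were higher, 1 of them by little. The log2 fold change of 0.66 ± 0.35 was not called (limma, adjusted p = 0.498), and its 95% interval ran from -0.27 to 1.58.

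Il6 encodes interleukin 6, an inflammatory cytokine that also acts on plasma cells and blood progenitors. Its levels were -7.90 and -7.24 in ACKR4-positive cells and -2.79 and -4.56 in ACKR4-negative cells. No spot was well above background on the ACKR4-positive arrays, and all 4 spots were on both ACKR4-negative arrays. The ACKR4-negative arrays differed from each other by more than for Il7, with mean spot signals of 112 in replicate 1 and 28.4 in replicate 2. The log2 fold change was -3.89 ± 0.68 (limma, adjusted p = 0.0536), so Il6 was not called, and it had a floor-based fold of 3.99. With the sort as a block it was called (adjusted p = 0.0125), as it was without ACKR4-negative replicate 2 (adjusted p = 0.0309, log2 fold change -4.78). Normexp gave -1.09 (adjusted p = 0.257).

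Il6 is a textbook gene of inflammatory transcription, and its promoter shows the letters of 3 of the 7 motifs searched, which is why it is printed. The 250 bases before its start are from RefSeq on GRCm38.p6, chr5:30012864-30013113, plus strand, with motif letters in capitals.
Il6 promoter: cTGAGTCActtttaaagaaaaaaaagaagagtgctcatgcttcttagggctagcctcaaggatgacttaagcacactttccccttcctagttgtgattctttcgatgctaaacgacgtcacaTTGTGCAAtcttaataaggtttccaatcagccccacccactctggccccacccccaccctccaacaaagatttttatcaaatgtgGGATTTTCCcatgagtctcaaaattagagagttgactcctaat
From left to right the capitals are an AP-1 match (TGANTCA, in 6.75% of 32851 promoters of this length, both strands searched), a C/EBP match on the other strand (TTGCNNAA, 9.56%) and an NF-kB match (GGNNTTTCC, 4.93%). The other motifs searched were CRE (TGACGTCA, 1.55%), IRF (GAAANNGAA, 7.13%), STAT (TTCNNNGAA, 7.02%) and the TATA box (TATAAA, 12.4%). The capitals do not overlap each other. Such matches describe letters in this window and were not measured as binding. The promoter table held 7 of the 10 genes, and Il7, Il15 and Il34 were not among them.

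Kitl encodes stem cell factor, the ligand of KIT, which blood stem cells and mast cells need. Its levels were 3.38 and 3.69 in ACKR4-positive cells and 5.05 and 3.29 in ACKR4-negative cells. Both groups carried strong signal, and ACKR4-negative replicate 1 was high while the other 3 arrays lay within a narrow range. The difference was -1.66 in sort 1 and 0.40 in sort 2, and the log2 fold change of -0.63 ± 0.65 was not called (limma, adjusted p = 0.777, 95% interval -2.35 to 1.09).

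The high Kitl value was not spread within the array. The 4 spots had mean signals of 9912 and 7623 on the ACKR4-positive arrays and 25459.9 and 6400.5 on the ACKR4-negative arrays, and the SD between spots of an array was 0.051 to 0.084 on the log2 scale. Between the ACKR4-negative arrays the SD was 1.25. The log2 fold change of Kitl became 0.25 when ACKR4-negative replicate 1 was left out (adjusted p = 0.986) and -1.51 when ACKR4-negative replicate 2 was (adjusted p = 0.314). The gap between the sorts, 2.07 on the log2 scale, was reached or passed by 2.63% of all tested genes, where the median gap was 0.336. ACKR4-negative replicate 1 also had the lowest spike-in signal and the highest erythroid signal, and their part in the Kitl value was not tested.

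Csf1 and Il34 encode the ligands of the receptor CSF1R, on which macrophages and their precursors depend. The Csf1 probe for variant 1 had levels of 0.95 and 0.41 in ACKR4-positive cells and 0.65 and 0.21 in ACKR4-negative cells. The groups overlapped, and the sorts gave differences of 0.30 and 0.20. The log2 fold change was 0.25 ± 0.35 (limma, adjusted p = 0.840, 95% interval -0.67 to 1.17), which bounds a difference in either direction but does not show equal levels.

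The variant 3 probes of Csf1 had the opposite sign. The upstream probe had levels of -3.76 and -4.68 in ACKR4-positive cells and -3.98 and -3.56 in ACKR4-negative cells, and the downstream probe had -2.85 and -3.75 in ACKR4-positive cells and -3.10 and -2.91 in ACKR4-negative cells. On both of them ACKR4-positive replicate 2 was the lowest of the 4 arrays, and on the upstream probe only 2 of its 4 spots were well above background. Fitted by probe, the log2 fold changes were -0.45 (adjusted p = 0.765) and -0.30 (adjusted p = 0.839). These probes share bases and are not separate evidence, and whether the variants differ between the groups was not tested.

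Il34 (probe at chr8:113265835-113265894, minus strand) had levels of -3.53 and -4.55 in ACKR4-positive cells and -3.37 and -1.87 in ACKR4-negative cells, with all 4 spots well above background on every array. The groups did not overlap, but nearly all of the difference came from sort 2, where it was -2.68, against -0.16 in sort 1. The log2 fold change of -1.42 ± 0.66 was not called (limma, adjusted p = 0.423, 95% interval -3.16 to 0.32). A gap between the sorts as large as that of Il34, 2.52, was seen for 1.75% of all tested genes.

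Flt3l encodes FLT3 ligand, which dendritic cells and early progenitors need. Its brighter probe, at chr7:52386603-52386662 (minus strand), had levels of 0.059 and 0.80 in ACKR4-positive cells and -0.56 and 0.17 in ACKR4-negative cells. The groups overlapped, because both arrays of sort 2 were higher than those of sort 1, yet within each sort the ACKR4-positive array was higher by nearly the same amount, 0.62 and 0.63. The log2 fold change was 0.62 ± 0.43 (limma, adjusted p = 0.627) and 0.62 with the sort as a block (adjusted p = 0.126). A second probe, at chr7:52386784-52386843 (minus strand), had levels of -0.89 and -0.62 in ACKR4-positive cells and -1.57 and -1.43 in ACKR4-negative cells. Its groups did not overlap, and its log2 fold change by probe was 0.75 ± 0.29 (adjusted p = 0.330). The first 30 bases of the brighter probe end in cagaaaggaag. The 250 bases before the Flt3l start on GRCm38.p6 begin with the same letters, and the second probe lies upstream of the brighter one on mm9. Whether either probe reads the annotated Flt3l transcript was not tested.

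**Figure D2:**
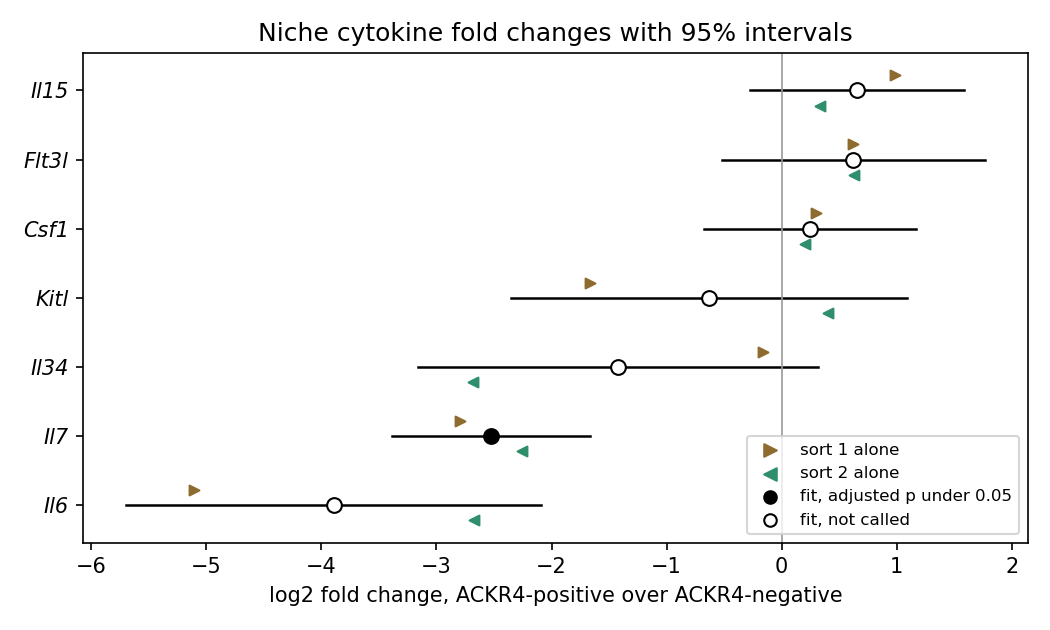
Log2 fold change, ACKR4-positive over ACKR4-negative, of the 7 tested cytokine genes with the 95% interval of the limma fit (circles and lines) and the difference within each sort (triangles). Il7 at -2.53 is the filled, called point, Kitl has its sorts on opposite sides of 0, and both sorts of Flt3l sit at 0.62 and 0.63.

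Tnfsf13b encodes BAFF, the B cell survival factor, Thpo encodes thrombopoietin, the main growth factor of megakaryocytes, and Il33 encodes interleukin 33, a nuclear cytokine released by damaged barrier and vessel cells. Tnfsf13b had levels of -7.17 and -6.88 in ACKR4-positive cells and -7.34 and -6.37 in ACKR4-negative cells. Il33 had -7.70 and -7.20 in ACKR4-positive cells and -7.11 and -6.86 in ACKR4-negative cells. The brighter of the Thpo probes had -6.98 and -5.98 in ACKR4-positive cells and -7.06 and -6.47 in ACKR4-negative cells. None of the spots of these probes was well above background on any array, so they give no order of the groups.

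Receptors of these cytokines were read as a list of 16 genes, 10 of them tested. Of these 1 was called higher and 1 lower (1.91% and 3.71% of all tested genes), and 8 were not called. Their median log2 fold change was 0.071. Of the 9 measured in both groups 0 were called higher and 1 lower, since the higher call, Ptprz1, was tested through the ACKR4-positive arrays alone. With the sort as a block 2 were called higher and 1 lower (6.75% and 8.55% of all tested genes).

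Kit, the receptor of stem cell factor, had levels of 1.22 and 1.16 in ACKR4-positive cells and 3.08 and 3.41 in ACKR4-negative cells. The groups were far apart next to the spread of their replicates, and the log2 fold change was -2.05 ± 0.28 (limma, adjusted p = 0.0300). Leaving out any 1 of the 4 arrays took the call away (adjusted p = 0.0859 to 0.174) while the value stayed between -2.22 and -1.89. Kit fell where its ligand gene Kitl was not called. A test of the difference between Kit and Kitl was not run.

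Ptprz1, a receptor phosphatase that binds interleukin 34, had levels of -2.89 and -2.17 in ACKR4-positive cells and -5.82 and -7.49 in ACKR4-negative cells, where it was not well above background. Its floor-based fold was 8.27, higher in ACKR4-positive cells, with a fitted log2 difference of 4.13 ± 0.66 (limma, adjusted p = 0.0428) whose direction the filter had set. Only 1 of its 3 probes was well above background on any array. The call was lost with normexp (1.41, adjusted p = 0.0900), with quantile normalization (adjusted p = 0.0575), and without ACKR4-positive replicate 1, ACKR4-positive replicate 2 or ACKR4-negative replicate 2 (adjusted p = 0.0620 to 0.0993, values 3.29 to 4.49). Csf1r, the receptor that Csf1 and Il34 share, had levels of -1.24 and -1.51 in ACKR4-positive cells and -1.48 and -1.48 in ACKR4-negative cells (log2 fold change 0.10 ± 0.27, adjusted p = 0.928). A second Csf1r probe with signal on all 4 arrays differed by -0.51, with levels of -2.67 and -1.26 in ACKR4-positive cells and -2.36 and -0.55 in ACKR4-negative cells.

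For interleukin 15 and interleukin 7, Il2rg encodes the shared gamma chain. It had levels of 4.92 and 4.92 in ACKR4-positive cells and 3.93 and 3.65 in ACKR4-negative cells, a log2 fold change of 1.13 ± 0.28 (limma, adjusted p = 0.124) that was called with the sort as a block (adjusted p = 0.0288). Il15ra, the chain that presents interleukin 15 to neighbouring cells, had levels of 2.20 and 1.34 in ACKR4-positive cells and 2.20 and 1.82 in ACKR4-negative cells. Its log2 fold change was -0.24 ± 0.41 (adjusted p = 0.870), and its second probe differed by 0.76. Il7r and Il2rb were not well above background on any array.

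For interleukin 6, the signalling chain gene Il6st had a log2 fold change of 0.66 ± 0.31 (limma, adjusted p = 0.434) and Il6ra of -1.13 ± 0.40 (adjusted p = 0.272).

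Other growth and homing factors of blood cells made a list of 39 genes, of which 37 had a probe and 16 were tested. Of these 0 were called higher and 2 lower (1.91% and 3.71% of all tested genes), with a median of -0.40. With the sort as a block 1 was called higher and 5 lower (6.75% and 8.55%). Of the 10 measured in both groups 0 were called higher and 1 lower, with a median of -0.036. At an unadjusted p under 0.05 in limma, 2 were higher and 7 lower (7.12% and 9.13% of all tested genes). Angpt1, which encodes angiopoietin 1, a TIE2 ligand that also acts on blood stem cells, had levels of -5.79 and -6.39 in ACKR4-positive cells and -1.53 and -0.79 in ACKR4-negative cells. It was not well above background in ACKR4-positive cells and had a floor-based fold of 21.0, lower there. The fitted log2 difference was -4.93 ± 0.41 (limma, adjusted p = 0.0120), and -2.38 with normexp. Its direction was set by its entry through the ACKR4-negative arrays alone. Bmp4, a bone morphogenetic protein gene, fell by 1.66 (SE 0.27, adjusted p = 0.0449), a call lost whichever array was left out (adjusted p = 0.136 to 0.278, values -1.76 to -1.56). It was lost also with normexp (adjusted p = 0.108), with either other filter on dim probes (0.0741 with none, 0.0565 with a stricter one) and with a trended prior (0.0584). The second Bmp4 probe was well above background on ACKR4-positive replicate 1 alone, with levels of -2.46 and -7.12 in ACKR4-positive cells and -6.27 and -6.17 in ACKR4-negative cells, a difference of 1.43 in the opposite direction. Cxcl13, a B cell chemokine, was not well above background in ACKR4-positive cells, with a floor-based fold of 3.64, lower there. It was not called (limma, adjusted p = 0.0570), but was with the sort as a block (adjusted p = 0.0165). Cxcl12, the chemokine that holds stem cells in their niche, had levels of 2.47 and 2.60 in ACKR4-positive cells and 3.82 and 4.09 in ACKR4-negative cells. Its log2 fold change of -1.42 ± 0.28 was not called (limma, adjusted p = 0.0710) and was -2.43 at its second probe (adjusted p = 0.0420 by probe). Cxcl12 was called with the sort as a block (adjusted p = 0.0124), normexp (0.0481), a trended prior (0.0476) and the mean of its probes (0.0434). With quantile normalization (0.0519) and the deposited table (0.0694) it was not. Of the genes with a probe that were not tested, 19 were not well above background on any array, among them Epo, Csf2, Csf3, Il3 and Tslp.

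Proteases that cut these cytokines or their receptors made a list of 11 genes, 10 of them tested. Of these 0 were called higher and 2 lower (1.91% and 3.71% of all tested genes), with a median of -0.46. At an unadjusted p under 0.05 in limma, 0 were higher and 4 lower (7.12% and 9.13%). With the sort as a block 1 was called higher and 4 lower (6.75% and 8.55%). Both lower calls, Dpp4 and Pcsk6, were genes not well above background in ACKR4-positive cells and tested through the ACKR4-negative arrays alone, which set their direction. Of the 7 proteases measured in both groups 0 were called, with a median of -0.36. Dpp4, a surface peptidase that trims several cytokines, had levels of -7.80 and -6.15 in ACKR4-positive cells and 0.39 and 0.37 in ACKR4-negative cells. Its floor-based fold was 66.3, lower in ACKR4-positive cells (fitted log2 difference -7.35 ± 0.61, limma, adjusted p = 0.0118), and with normexp the difference was -3.91. Pcsk6, a proprotein convertase, had a floor-based fold of 5.01, also lower (fitted log2 difference -3.69 ± 0.27, limma, adjusted p = 0.0103). With normexp the difference was -1.04 (adjusted p = 0.180). The main sheddase genes Adam10 and Adam17, which release membrane-bound ligands and receptors, had log2 fold changes of 0.16 ± 0.29 and -0.49 ± 0.33 and were not called (adjusted p = 0.880 and 0.623).

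Signal transducers and feedback genes of cytokine receptors made a list of 32 genes, all tested. In limma 0 were called in either direction (5.62% of all tested genes). At an unadjusted p under 0.05 in limma, 1 was higher and 1 lower (7.12% and 9.13%). With the sort as a block 1 was called higher and 2 lower (6.75% and 8.55%). Their median was -0.11. Tyk2, a Janus kinase gene, had the smallest p, with levels of -1.81 and -2.20 in ACKR4-positive cells and -3.54 and -4.19 in ACKR4-negative cells (log2 fold change 1.86 ± 0.36, adjusted p = 0.0704, and 0.00557 with the sort as a block). Cish, a feedback gene of STAT5 signalling, had a log2 fold change of -1.09 ± 0.29 (adjusted p = 0.152, and 0.0294 with the sort as a block). Next by p came Map3k14, a kinase gene of the noncanonical NF-kB pathway, at -1.39 ± 0.54 (adjusted p = 0.320, and 0.0357 with the sort as a block), and Jak3, the Janus kinase gene of the gamma chain receptors, at -0.63 ± 0.28 (adjusted p = 0.408, and 0.152 with the sort as a block).

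**Figure D3:**
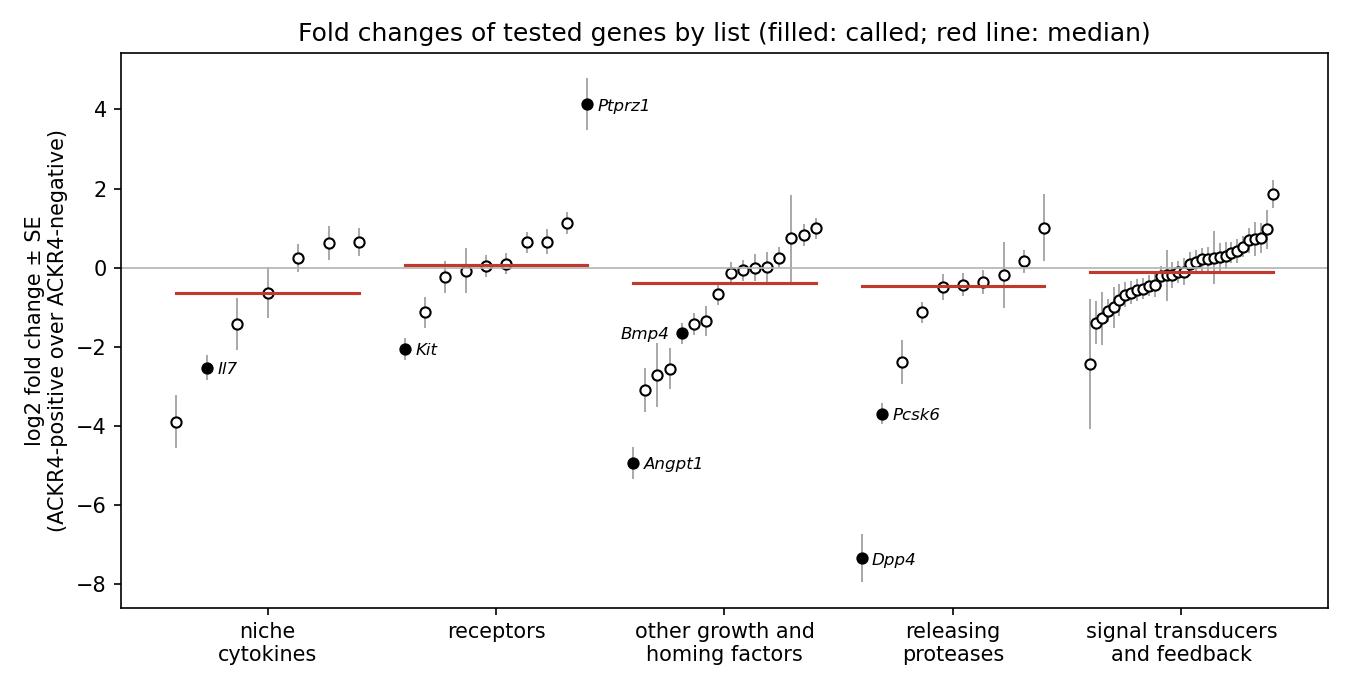
Log2 fold change with standard error of every tested gene of the cytokine list and of the 4 companion lists, ACKR4-positive over ACKR4-negative. Filled points are called and named, red lines are list medians. Il7 (-2.53), Kit (-2.05), Angpt1 (-4.93), Bmp4 (-1.66), Dpp4 (-7.35) and Pcsk6 (-3.69) lie below 0, Ptprz1 (4.13) lies above it, and 0 of the 32 signal transducers are filled. Il7, Angpt1, Dpp4, Pcsk6 and Ptprz1 were each measured above background in 1 group alone.

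Marker lists of other cell types did not all move alike between the groups. Counts of called markers stand beside 1.91% of all tested genes called higher and 3.71% called lower. Megakaryocyte and platelet markers had a summed signal of 1.13 and 2.56 times the array's 75th percentile on the ACKR4-positive arrays and 104 and 236 times on the ACKR4-negative arrays, with 10 of 12 called lower, 6 of them tested through the ACKR4-negative arrays alone. Mural markers, of pericytes and smooth muscle, summed to 3.25 and 3.59 in ACKR4-positive and 60.4 and 102 in ACKR4-negative cells, with 4 of 10 called lower, 1 of them in that way. Fibroblastic reticular markers, whose cells are a known source of Il7, summed to 3.02 and 3.93 in ACKR4-positive and 5.33 and 4.91 in ACKR4-negative cells. Of 12 tested, 0 were called, with a median log2 fold change of -1.12. Without overlap of the groups 2 were higher and 8 lower (23.3% and 21.6% of all tested genes). At an unadjusted p under 0.05 in limma 1 was higher and 5 lower (7.12% and 9.13%). With the sort as a block 2 were called higher and 5 lower (6.75% and 8.55%). Of the 4 with a probe that were not tested, Pdpn was well above background on replicate 2 of both groups, Bst1 on ACKR4-positive replicate 1 and ACKR4-negative replicate 2, Pdgfra on ACKR4-negative replicate 2 alone and Dpt on no array. Il7, Il6, Kit and Angpt1 were low where the platelet, mural and fibroblastic reticular sums were low, and the part of such cells in those differences was not tested. In bulk samples, fewer cells of a type and less RNA per cell cannot be told apart.

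Leukocyte, erythroid and endothelial markers were read in the same way, beside the same shares of all tested genes. The part of such cells in the receptor values was not tested. Common leukocyte markers summed to 10.1 and 17.1 in ACKR4-positive and 19.5 and 35.0 in ACKR4-negative cells, with 1 of 6 called lower, and Ptprc, which encodes CD45, was well above background on ACKR4-positive replicate 2 alone. Lymphocyte markers summed to 6.18 and 22.4 in ACKR4-positive and 5.28 and 15.7 in ACKR4-negative cells, higher in sort 2 in both groups. Of 8 tested, 0 were called higher and 1 lower, with a median log2 fold change of -0.57. Macrophage and monocyte markers, a list that holds Csf1r, summed to 80.0 and 146 in ACKR4-positive and 63.0 and 84.8 in ACKR4-negative cells, with 1 of 12 called higher. Their median log2 fold change was -0.19, and in both sorts 3 were higher and 6 lower (38.6% and 34.5% of all tested genes). With the sort as a block 1 was called higher and 3 lower (6.75% and 8.55% of all tested genes). Erythroid markers summed to 18.2 and 69.3 in ACKR4-positive and 476 and 28.8 in ACKR4-negative cells, with 2 of 7 called lower, both tested through the ACKR4-negative arrays alone. Pan-endothelial markers summed to 641 and 790 in ACKR4-positive and 862 and 897 in ACKR4-negative cells, with 4 of 14 called lower.

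**Figure D4:**
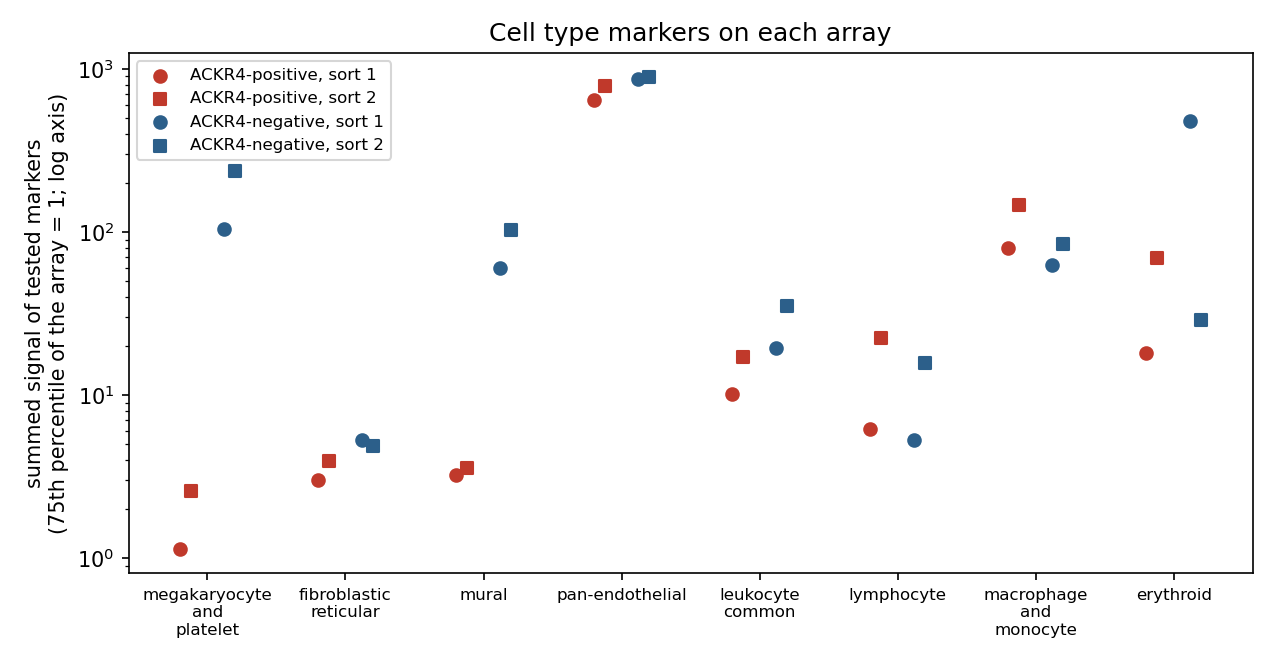
Summed signal of the tested markers of 8 cell types on each array, in multiples of the array's 75th percentile on a log axis, with ACKR4-positive arrays in red left of ACKR4-negative arrays in blue (circles: sort 1, squares: sort 2). The platelet, mural, fibroblastic reticular, common leukocyte and pan-endothelial sums of both ACKR4-positive arrays lie below those of both ACKR4-negative arrays. The erythroid sum of ACKR4-negative replicate 1 (476) stands above the other 3 arrays.

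The genes whose pattern over the 4 arrays was nearest to that of Il7, by Euclidean distance of levels centred on each gene's own mean, were Oas1c (distance 0.12), Nos2 (0.16) and Acss1 (0.16). Nos2, which encodes inducible nitric oxide synthase, had levels of 1.35 and 1.94 in ACKR4-positive cells and 3.95 and 4.14 in ACKR4-negative cells. It was well separated between the groups at a level far from background, unlike Il7. These 3 genes were chosen for their likeness, so their differences are a description.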

How the data were processed

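RNA of 4 samples was measured on 1-colour arrays, 2 ACKR4-positive and 2 ACKR4-negative, and amplification started from 6 to 20 ng of RNA, per the labels. The processed signal is an intensity that the authors made with Agilent Feature Extraction 10.7.3.1, background-subtracted and detrended within each array, per the file headers, with no scaling between arrays. All 4 arrays were on 1 slide in 1 scan, so no slide block was possible. The spot flags were deposited in the same files. The authors' deposited value table holds intensities with each array's 75th percentile at 1498 to 1506 and a lowest value of 15. It was used in place of the scanner signal in 1 alternative.

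Leaving out control features, 157716 of the 162570 spots of an array were used, for 39429 probes. Spots marked as non-uniform or population outliers (1.91% to 1.96%) were left out, the other log2 signals of a probe were averaged, and the array's 75th percentile was subtracted. Probes were named through a RefSeq gene table (27508 by accession, 3544 by current symbol, 167 through another probe of the gene, 8210 by the name in the file). All 14 cytokine probes matched by name. Differences were tested in R 4.3.3 with limma 3.58.1, by a linear model with moderated variance and 2-sided p-values, and the procedure was tested on simulated data. Other software was jsonlite 2.0.0, data.table (version 1.17.8), Python 3.11.15 and matplotlib 3.10.9. For a gene not well above background on either array of its dimmer group, a floor-based fold was computed. It sets the mean of the brighter group against the dimmer group's levels raised to each array's lowest level well above background. It is not a guaranteed minimum. Osm was well above background on no array at levels up to -4.80. Normexp gave smaller differences for the genes given here with such a fold. It was run with an offset of 50, which by itself shrinks differences of faint signals.

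The sort number pairs the arrays, because arrays with the same replicate number carry 1 mouse number in their titles. Deviations of same-sort arrays from their group means correlated at 0.60 across tested genes. No label says more about the pools, so p-values measure the spread between 2 pools per group, and the number of arrays limits the precision. The 10 genes, the companion and marker lists and the tests were chosen with earlier results of these data known. Named genes are all 10 cytokines and, from each companion list, every called gene up to 6 or, with none called, the 4 with the smallest p. Receptors described beside their ligand, Cxcl12, Cxcl13, Adam10, Adam17 and the genes not well above background were named after their values were seen. The first 30 bases of a probe are printed. The values of 1 receptor gene are not reported here.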

Additional observations from a re-analysis of the deposited data

How the results depend on the processing

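Il34, Il15 and Flt3l kept their direction in every alternative. Il7 and Il6 were lower in every alternative that gave a value, a direction set by their entry through the ACKR4-negative arrays alone. Il7 and Il6 had none under the stricter filter on dim probes, which asks for signal on all 4 arrays. The count of cytokine genes called lower, 1, became 0 with normexp and with the stricter filter, 2 with an adjusted p under 0.1 and 2 with the sort as a replicate block (Il7 and Il6), and ranged from 0 to 1 without 1 array. Csf1 turned to -0.16 as the mean of its probes and ranged from -0.022 to 0.52 without 1 array, turning without ACKR4-positive replicate 1. Kitl ranged from -1.51 to 0.25 without 1 array, turning without ACKR4-negative replicate 1. None of these Csf1 and Kitl values was called. Over all genes, 332 called higher and 644 lower became 165 and 276 with the stricter filter, which tested fewer genes, 1172 and 1484 with the replicate block, and 529 and 926 with an adjusted p under 0.1. Without 1 array they ranged from 75 to 295 higher and from 312 to 597 lower. A fit without 1 array assumes that the lone array varies like the other group, and the cause of other changes was not tested. Median centring moved the median of all genes by 0.069. Quantile normalization, the deposited table and its floor, outlier spots kept, the mean of probes and the trended prior left the Il7 call in place (adjusted p = 0.0163 to 0.0366). Signal near background limits Il7 and Il6 to floor-based folds, which are not minima.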
